A study of Mus musculus with 12 samples.

Results

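The genes described here are the components of the Wnt signaling pathway, taken as every gene that the authors' annotation placed in KEGG mouse pathway mmu04310, without Jun, Fosl1, Trp53 and Smad3. This gave 143 of the 21878 genes in the table. Of these, 81 reached 1 FPKM (fragments per kilobase of transcript, scaled to the library total) in at least 3 of the 12 samples and were tested, within the 10675 genes that did. The members were placed by known role into 20 ligands and ligand-processing genes, 13 receptors and co-receptors, 24 inhibitors, 30 genes of the destruction complex and its regulators, 9 nuclear factors, 7 targets, 16 genes of the planar polarity branch and 20 of the calcium branch, and 4 gene models were left unplaced. Some placings are loose, since the inhibitors include the TGF-beta pseudoreceptor gene Bambi and the nuclear factors the kinase gene Map3k7.

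RNA-seq was carried out on alveolar type II (AT2) cells, the surfactant-secreting epithelial cells of the alveolus, sorted from the lungs of C57BL/6 mice as EpCAM+ cells negative for CD24, CD31, CD34, CD45 and Sca-1. There were 4 groups of 3 samples, described by the series as biological replicates. AT2-PBS and AT2-BLM came from Atg5 f/f mice, which carry the floxed Atg5 allele without Cre and are labelled wild type, given PBS or bleomycin (BLM, 2 U/kg) into the trachea. Atg5-/- AT2-PBS and Atg5-/- AT2-BLM came from Nkx2.1Cre;Atg5 f/f mice, in which Cre is driven by the Nkx2.1 promoter and removes Atg5, a gene needed for autophagosome formation, from lung epithelial cells in general and not from AT2 cells alone. Cells were taken at day 14 after BLM, and the mice of the BLM experiments were males of 8 to 12 weeks. No day was given for the Atg5-/- AT2-PBS group.

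Wnt ligands are lipid-modified secreted proteins that bind Frizzled receptors and the LRP5 and LRP6 co-receptors. Without a ligand, a destruction complex built on Axin and APC holds beta-catenin for phosphorylation by the kinases CK1 and GSK3 and for degradation, and with a ligand beta-catenin accumulates and acts in the nucleus with TCF/LEF factors. Planar polarity and calcium branches run through small GTPases and through phospholipase C, CaMKII and calcineurin. In the lung, Wnt signals are known for their part in maintaining a subset of AT2 cells and in their proliferation after injury.

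Promoter sequence is shown for Wnt3a, Frat2 and Tcf7l1, 3 of the 4 members that met both of the following criteria. They fell with BLM in AT2 cells, and their change with BLM differed between the genotypes, each at a limma adjusted p under 0.05. The fourth was Apc. Other members that fell at that limit, such as Notum and Bambi, did not meet the second criterion. The sequences are the 250 bases before the gene start in the RefSeq annotation of GRCm38.p6, read 5′ to 3′ on the gene's strand. They lie on the minus strand at chr11:59290752-59291001 (Wnt3a), chr19:41848133-41848382 (Frat2) and chr6:72789046-72789295 (Tcf7l1). Capitals mark the core CTTTG, the letters shared by the sites that TCF/LEF factors are known to bind.
Wnt3a: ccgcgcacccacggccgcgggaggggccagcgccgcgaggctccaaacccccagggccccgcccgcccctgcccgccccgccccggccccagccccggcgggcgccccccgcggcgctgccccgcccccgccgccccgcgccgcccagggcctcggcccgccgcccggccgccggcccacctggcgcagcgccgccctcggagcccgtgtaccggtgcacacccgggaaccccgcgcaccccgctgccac
Frat2: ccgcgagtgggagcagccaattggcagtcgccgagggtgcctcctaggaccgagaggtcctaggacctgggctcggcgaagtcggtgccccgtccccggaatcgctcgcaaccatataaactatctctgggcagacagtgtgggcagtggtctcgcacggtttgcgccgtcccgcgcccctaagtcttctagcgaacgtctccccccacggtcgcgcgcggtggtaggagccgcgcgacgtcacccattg
Tcf7l1: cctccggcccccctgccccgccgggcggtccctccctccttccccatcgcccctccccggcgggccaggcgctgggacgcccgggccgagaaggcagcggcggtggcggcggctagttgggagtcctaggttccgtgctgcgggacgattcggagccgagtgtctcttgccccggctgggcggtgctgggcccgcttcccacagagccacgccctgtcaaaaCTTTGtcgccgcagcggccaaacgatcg
The Wnt3a promoter had 87.6% G and C, against 66% for Frat2 and 73.6% for Tcf7l1. The core, searched as CTTTG on both strands, occurred once, 28 bases before the start of Tcf7l1, and not in the other 2 windows. A promoter of this table was found for 105 of the 143 members, and 47 of them held the core, against 48.6% of all 32851 promoters of the same length. The longer forms CTTTGAT and CTTTGAA, of which each contains the core, occurred in 8 of the 105 members and in 7.48% of all promoters. A match is a match of letters only.

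The samples carried the markers of AT2 cells, of which 7 of 8 were tested, with a summed level between 22956 and 152581 FPKM, of which 112570 in AT2-BLM replicate 2 was Sftpc, listed at 0 in the other 11 samples. An exact 0 can therefore be a failed estimate. The deposited values carry no fragment counts, so the depth is unknown. Replicates correlated at 0.938 to 0.987. Atg5 itself was listed at 6.01 to 12.5 FPKM in AT2-PBS, 9.97 to 11.1 in AT2-BLM, 6.72 to 10.1 in Atg5-/- AT2-PBS and 8.37 to 8.84 in Atg5-/- AT2-BLM, so its gene-level FPKM overlapped between the genotypes with PBS and was lower in Atg5-/- cells with BLM by a narrow margin. The Y-linked gene Eif2s3y was at 8.25 to 13.1 FPKM in 5 libraries and at 0.530 or less in 7, although male mice were described, and the 3 Atg5-/- AT2-PBS libraries were all among the 7. Atg5-/- AT2-PBS also stood apart in markers of other cells: fibroblast markers summed to 95 to 104 FPKM, against 3.57 to 13.0 in AT2-PBS, and club cell markers to 23391 to 84980, against 4930 to 11751. The liver genes Alb and Apoa1 were also highest in that group, at 150 to 335 and 284 to 520 FPKM. They were at 1.14 to 67.6 and 0 to 103 in AT2-PBS and at 26.4 to 87.6 and 40.0 to 120 in AT2-BLM. In Atg5-/- AT2-BLM they were at 15.3 to 124 and 25.6 to 188. The part of these differences in the results below was not tested.

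With BLM, Wnt components in AT2 cells fell more often than they rose. Of 81 tested members, 10 were higher and 15 lower in AT2-BLM than in AT2-PBS at the study's threshold (limma, unadjusted p under 0.05 and at least 1.4-fold on the log2(FPKM + 1) scale). Benjamini-Hochberg adjustment over all genes left 14 of the 81 tested members, beside a similar share of all genes (17.8%). These 14 were all among the 25 called. Across all 10675 genes 28.4% were called, 20.6% higher and 7.77% lower, so 30.9% of members called is close to the background, while the members' split, 12.3% higher and 18.5% lower, ran the other way. The median member changed by -0.08 (log2) and the median of all genes by 0.17. Scaling the libraries moved that median of all genes by -0.16 to -0.19, and the members called then numbered 3 higher and 21 lower (quantile), 3 and 18 (median ratio) or 2 and 17 (Cdh1), beside all-gene splits of 1319 and 1373, 1390 and 1366, and 986 and 1288. The members called lower thus outnumbered those called higher under all 3 scalings. The ranges of the groups did not overlap for 30 of 81 members, where 40.2% of all genes had ranges apart. Markers of other cell types moved in the same comparison. Club cell markers summed to 4930 to 11751 FPKM in AT2-PBS and to 873 to 4965 in AT2-BLM, with 3 of 4 called lower, and markers of alveolar type I cells to 1874 to 2277 and 2363 to 3487, with 5 of 8 called higher. Of 6 tested leukocyte markers 5 were called higher. Their part in the members' changes was not tested. In bulk RNA, fewer cells of one kind and less RNA per cell cannot be told apart.

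**Figure D1:**
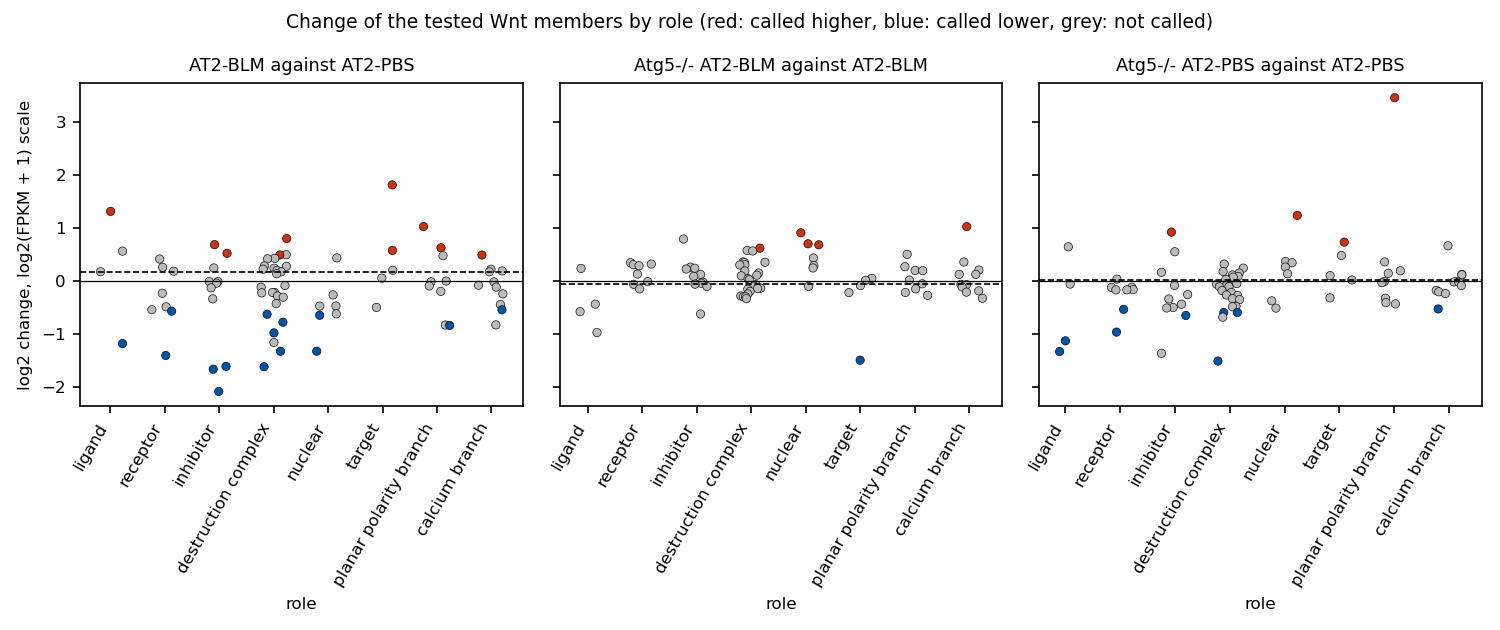
Each point is 1 tested member, placed by role on the horizontal axis, with its log2 change on the log2(FPKM + 1) scale on the vertical axis, for 3 comparisons. The solid line is 0 and the dashed line the median of all genes. Blue points (called lower) outnumber red ones (called higher) with BLM in AT2 cells, 15 against 10, and 6 members were called in AT2-BLM when Atg5-/- was compared with the floxed control.

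Ligands were few. Of the 20 ligand and ligand-processing genes only 4 were tested: Porcn, the enzyme that attaches the lipid to Wnt proteins, and Wnt3a, Wnt7b and Wnt10a. Wnt3a, a ligand of the beta-catenin branch (mm9 chr11:59061535-59104254, minus strand), was at 5.20, 5.62 and 3.93 FPKM in AT2-PBS and at 1.00, 1.80 and 2.07 in AT2-BLM. In Atg5-/- AT2-PBS it was at 2.12, 1.58 and 1.39, and in Atg5-/- AT2-BLM at 3.69, 1.46 and 1.45. Every AT2-PBS sample was above every sample of the other 3 groups. Wnt3a fell with BLM in AT2 cells (log2 change -1.18, SE 0.27, adjusted p = 0.0133) and was also lower in Atg5-/- AT2-PBS than in AT2-PBS (-1.13, SE 0.27, adjusted p = 0.015). With BLM in Atg5-/- cells it was not called, and the change with BLM differed between the genotypes by 1.37 (SE 0.38, adjusted p = 0.0483).

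Wnt7b, a ligand of the lung epithelium (mm9 chr15:85365869-85412251, minus strand), had its lowest level in Atg5-/- AT2-PBS. It was at 3.91, 6.79 and 5.86 FPKM in AT2-PBS, 6.35, 7.23 and 13.1 in AT2-BLM, 2.32, 1.99 and 0.650 in Atg5-/- AT2-PBS, and 4.23, 5.82 and 6.15 in Atg5-/- AT2-BLM. The Atg5-/- AT2-PBS samples were the lowest 3 of the 12. AT2-PBS overlapped both BLM groups, whereas the BLM groups themselves did not overlap, with the Atg5-/- samples lower and no call (-0.58). Wnt7b was lower in Atg5-/- AT2-PBS than in AT2-PBS (-1.33, SE 0.31, adjusted p = 0.0135) and rose with BLM in Atg5-/- cells (1.32, SE 0.31, adjusted p = 0.021). In the floxed controls the change with BLM, 0.56 (adjusted p = 0.223), did not pass, and the difference between the genotypes was not called either. Wnt10a was at 0.540, 0 and 0 FPKM in AT2-PBS and at 0.464, 1.67 and 5.08 in AT2-BLM. Its call (1.32, SE 0.53, adjusted p = 0.106) was lost without AT2-BLM replicate 3 (0.78) and without AT2-PBS replicate 2 or 3 (1.21 each).

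Porcn was at 5.54 to 6.80 FPKM in AT2-PBS and at 4.53 to 13.2 in AT2-BLM and was called in no comparison. The other 16 ligand genes were below the limit for testing. Wnt11 was at 0.285 to 0.331 FPKM in AT2-PBS and at 0.0932 to 0.127 in AT2-BLM. Wnt4 did not pass 0.208 FPKM and Wnt5a 0.162 in any sample. Wnt7a reached 7.35 FPKM in AT2-BLM replicate 3 and 1.62 and 0.657 in the other AT2-BLM samples, against 0.0319 to 0.248 in AT2-PBS. In that replicate mesothelial markers also stood highest, at 59.8 FPKM in sum, and their part in the Wnt7a value was not tested.

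Among 8 tested receptor genes, 2 fell with BLM and none rose, which is 25% called beside 28.4% of all genes. Fzd7, a Frizzled receptor (mm9 chr1:59538991-59543791, plus strand), was at 3.07, 3.01 and 6.25 FPKM in AT2-PBS and at 0.889, 0.780 and 0.885 in AT2-BLM. The AT2-BLM samples had a mean of 0.851 ± 0.0616 FPKM (SD, n = 3) and lay below all AT2-PBS samples. Fzd7 fell with BLM (-1.41, SE 0.30, adjusted p = 0.0105). In Atg5-/- AT2-PBS it was at 1.74, 1.34 and 1.48, also below every AT2-PBS sample (-0.97, SE 0.30, adjusted p = 0.0656), and in Atg5-/- AT2-BLM at 1.15, 2.71 and 0.548. Its change with BLM differed between the genotypes by 1.29 (SE 0.43, adjusted p = 0.0966), called only before adjustment. That call was lost under scaling to Cdh1 (1.16) and with Y-linked expression as a covariate (1.09). The call between the genotypes with PBS was also lost under scaling to Cdh1 (-0.72).

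The co-receptor Lrp6 was at 1.68, 1.12 and 1.79 FPKM in AT2-PBS and at 0.695, 0.519 and 0.880 in AT2-BLM. The groups did not overlap, but the call (-0.57, SE 0.26, adjusted p = 0.139) was lost in 13 of 22 alternative settings. Lrp5, the other co-receptor, was at 0.377 to 1.80 FPKM in AT2-PBS and at 0.397 to 1.13 in AT2-BLM and was not called. Fzd2 was at 0.807, 1.00 and 1.10 in AT2-PBS and at 0.396, 0.245 and 0.584 in AT2-BLM (-0.49, adjusted p = 0.331, not called).

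Fzd1 and Gpc4 had the highest levels among the tested receptor genes. Fzd1 was at 10.2, 9.43 and 5.81 FPKM in AT2-PBS and at 11, 10.3 and 7.63 in AT2-BLM, with no call. It was at 5.45, 5.94 and 4.82 in Atg5-/- AT2-PBS and at 9.55, 7.03 and 12.4 in Atg5-/- AT2-BLM. The first of these groups was called lower than AT2-PBS (-0.54, SE 0.24, adjusted p = 0.204), with overlapping ranges, and the second higher than the first (0.71, SE 0.24, adjusted p = 0.0924). Gpc4, a glypican that binds Wnt ligands at the cell surface, was at 4.42 to 5.81 FPKM in AT2-PBS and at 6.62 to 8.70 in AT2-BLM (0.42, adjusted p = 0.138, under the fold limit). It was called higher in Atg5-/- AT2-BLM than in Atg5-/- AT2-PBS (0.52, adjusted p = 0.118).

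Of 11 tested inhibitors, 2 rose and 3 fell with BLM, that is 18.2% and 27.3%, beside 20.6% and 7.77% of all genes. Those that fell were Notum, Bambi, whose place among Wnt inhibitors is loose, and Ctbp1, whose call was lost without AT2-PBS replicate 3. Notum, a secreted enzyme that removes the lipid from Wnt ligands (mm9 chr11:120515102-120522489, minus strand), was at 9.01, 7.08 and 9.71 FPKM in AT2-PBS and at 1.97, 1.78 and 0.364 in AT2-BLM. All 3 AT2-BLM samples were far below the controls, and its change was -2.09 (SE 0.38, adjusted p = 0.0051). This was the steepest fall among the members on the log2(FPKM + 1) scale. With a pseudocount of 0.1 Frat2 fell by more (-3.20). In Atg5-/- AT2-PBS Notum was at 6.08, 4.84 and 6.39, and in Atg5-/- AT2-BLM at 6.58, 1.88 and 1.69. Replicate 1 of the last group stood with the PBS samples and the other two with AT2-BLM. The difference between the genotypes in the change with BLM (1.30, SE 0.54, adjusted p = 0.195) was called before adjustment. It was 0.81, no longer called, without that replicate, and 2.17 (adjusted p = 0.016) with Y-linked expression as a covariate.

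Bambi, a transmembrane pseudoreceptor of the TGF-beta family that is also listed in the Wnt pathway, was at 21.2, 20.5 and 21.6 FPKM in AT2-PBS and at 5.80, 5.56 and 6.51 in AT2-BLM. The 2 groups were tight and far apart (-1.67, SE 0.27, adjusted p = 0.00256). The Atg5-/- AT2-PBS samples, at 10.7, 11.5 and 18, lay between them, with a call against AT2-PBS (-0.65, adjusted p = 0.162) that did not pass adjustment. Atg5-/- AT2-BLM was at 10.4, 3.99 and 6.08, lower than Atg5-/- AT2-PBS (-0.93, adjusted p = 0.0505).

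Serpinf1, which encodes the secreted protein PEDF, was at 28.9, 24.4 and 20.7 FPKM in AT2-PBS and at 35.4, 36.5 and 34.8 in AT2-BLM. It rose with BLM by 0.52 (SE 0.16, adjusted p = 0.0445), a call that was lost under all 3 scalings of the libraries. Levels were highest in Atg5-/- AT2-PBS, at 49.8, 49.5 and 42.9, and stood at 34.8, 41.5 and 28.5 in Atg5-/- AT2-BLM. The Atg5-/- AT2-PBS samples were above AT2-PBS by 0.93 (SE 0.16, adjusted p = 0.00207), and the change with BLM differed between the genotypes by -0.97 (SE 0.23, adjusted p = 0.0239). Fibroblast markers were highest in the same group, with all 5 tested called higher than in AT2-PBS, and their part in the Serpinf1 level was not tested.

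Nkd1, a Dishevelled-binding antagonist that is itself a Wnt target, had the highest level among the inhibitors, at 60.01, 66.7 and 65.2 FPKM in AT2-PBS and 56.9, 68.0 and 66.0 in AT2-BLM. It did not pass in that comparison (-0.01). It was at 47.2, 35.5 and 61.5 in Atg5-/- AT2-PBS and at 92.6, 61.8 and 74.4 in Atg5-/- AT2-BLM, higher with BLM by 0.67 (SE 0.20, adjusted p = 0.0577), a call that was lost under scaling to Cdh1 (0.22). The corepressor Ctbp1 was called lower with BLM (-1.61, SE 0.69, adjusted p = 0.121) through AT2-PBS replicate 3 at 71.0 FPKM, beside 7.09 and 15.4, and without it the value was -0.73 and did not pass. The secreted antagonist Sfrp2 was at 0.233 to 0.436 FPKM in AT2-PBS and at 0.406, 1.02 and 2.51 in AT2-BLM (0.69, SE 0.29, adjusted p = 0.121), and without AT2-BLM replicate 3, the library with the highest fibroblast marker sum of its group (39.7 FPKM), the value was 0.34 and did not pass. Sfrp1 and Wif1, which also bind Wnt ligands outside the cell, reached 1.26 and 0.442 FPKM at most and were not tested.

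The destruction complex and its regulators formed the largest role, with 26 of 30 genes tested, 2 higher and 5 lower with BLM. That is 26.9% of those tested, beside 28.4% of all genes. Ctnnb1, the gene of beta-catenin, was at 318, 244 and 295 FPKM in AT2-PBS, 253, 257 and 224 in AT2-BLM, 186, 183 and 247 in Atg5-/- AT2-PBS and 302, 219 and 302 in Atg5-/- AT2-BLM. None of the comparisons between groups called it, and the difference in the change with BLM did (0.63, SE 0.25, adjusted p = 0.167), without passing adjustment, and lost the call in 7 of 12 fits that left out 1 sample. Under quantile and median-ratio scaling Ctnnb1 was called lower in Atg5-/- AT2-PBS than in AT2-PBS (-0.62 and -0.51, not adjusted). Gsk3b was at 12.7 to 16.6 FPKM in AT2-PBS and at 10.2 to 14.1 in AT2-BLM (-0.28, adjusted p = 0.23, not called), and was called lower under quantile (-0.49) and Cdh1 (-0.50) scaling. Skp1a, a subunit of the ubiquitin ligase that marks beta-catenin, was at 123 to 174 FPKM in AT2-PBS and 166 to 177 in AT2-BLM and was not called.

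Apc, the scaffold of the complex, was at 4.69, 4.42 and 3.40 FPKM in AT2-PBS and at 2.22, 1.98 and 2.82 in AT2-BLM. In Atg5-/- AT2-PBS it was at 2.72, 3.17 and 3.37, and in Atg5-/- AT2-BLM at 4.44, 4.70 and 3.32. AT2-BLM overlapped neither AT2-PBS nor Atg5-/- AT2-BLM. Apc fell with BLM in AT2 cells (-0.63, SE 0.18, adjusted p = 0.0355) and was higher in Atg5-/- AT2-BLM than in AT2-BLM before adjustment (0.62, SE 0.18, adjusted p = 0.607). The change with BLM differed between the genotypes by 0.96 (SE 0.26, adjusted p = 0.0425).

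The neighbouring genes Frat1 and Frat2 encode proteins that bind GSK3 and take it away from Axin. Frat2 (mm9 chr19:41920468-41922622, minus strand) was at 2.38, 2.44 and 4.93 FPKM in AT2-PBS and below 1 FPKM in all 9 other samples, at 0.0768, 0.116 and 0.966 in AT2-BLM, 0.206, 0.962 and 0.251 in Atg5-/- AT2-PBS, and 0.116, 0.658 and 0.398 in Atg5-/- AT2-BLM. It was thus lower with BLM (-1.62, SE 0.31, adjusted p = 0.0058) and lower in Atg5-/- AT2-PBS than in AT2-PBS (-1.51, SE 0.31, adjusted p = 0.00519). The change with BLM differed by 1.56 (SE 0.43, adjusted p = 0.0473), and the Atg5-/- samples were already under 1 FPKM with PBS. Frat1 (mm9 chr19:41904658-41905299, plus strand) was at 8.37, 4.57 and 5.39 in AT2-PBS and at 2.40, 0.715 and 2.61 in AT2-BLM, and fell as well (-1.33, SE 0.30, adjusted p = 0.0132). It was at 3.88, 4.45 and 6.09 in Atg5-/- AT2-PBS, where it overlapped AT2-PBS and was not called, and at 3.15, 2.40 and 1.84 in Atg5-/- AT2-BLM (-0.74 against Atg5-/- AT2-PBS, adjusted p = 0.172).

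Dvl2, a Dishevelled protein that carries the signal from Frizzled, was at 5.10, 4.06 and 4.86 FPKM in AT2-PBS and at 0.954, 2.38 and 2.56 in AT2-BLM, and fell (-0.98, SE 0.30, adjusted p = 0.0405). Its paralogs Dvl1 and Dvl3 were not called. The ubiquitin ligase genes Siah1a and Siah1b moved in opposite directions and neither passed adjustment. Siah1a was at 1.46, 2.40 and 4 in AT2-PBS and at 0.768, 1.02 and 1.32 in AT2-BLM (-0.78, SE 0.26, adjusted p = 0.0567), and without AT2-PBS replicate 3 the value was -0.52 and did not pass. Siah1b was at 3.16, 0.345 and 0.693 in AT2-PBS and at 2.84, 2.42 and 2.84 in AT2-BLM (0.80, adjusted p = 0.118). Its value was 1.29 without AT2-PBS replicate 1 and 0.48, not called, without AT2-PBS replicate 2. As close paralogs, they can share reads, so the split between them is uncertain.

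Csnk2b, the regulatory subunit of casein kinase 2, rose from 26.7, 23.7 and 33.1 FPKM in AT2-PBS to 36.6, 35.8 and 45.9 in AT2-BLM (0.49, SE 0.18, adjusted p = 0.0829), a call that was lost in 3 of the 12 fits without 1 sample and under all 3 scalings of the libraries (0.26 to 0.30). Fbxw11, a substrate receptor of the ubiquitin ligase, was at 12.9 to 15.9 in AT2-PBS and at 18.3 to 21.5 in AT2-BLM, without a call. It was lower in Atg5-/- AT2-PBS, at 8.22 to 9.76 (-0.59, SE 0.23, adjusted p = 0.134), and reached 9.96 to 21.1 in Atg5-/- AT2-BLM (0.74, adjusted p = 0.0674). Both calls were lost under scaling to Cdh1 (-0.23 and 0.31). The remaining tested genes of this role were not called with BLM, among them Prkaca (-1.16, adjusted p = 0.192) and Axin1 (-0.43, adjusted p = 0.56), for both of which AT2-PBS replicate 3 stood alone, at 69.8 and 8.63 FPKM. Axin2, a regulator that is widely used as a readout of beta-catenin signaling, did not reach the limit for testing. It was at 0.299, 0.412 and 0.486 FPKM in AT2-PBS and at 0.149, 0.222 and 0.215 in AT2-BLM, without overlap, and at 0.261 to 0.368 and 0.117 to 0.404 in the Atg5-/- groups. In a fit without the limit its change with BLM was -0.23 (SE 0.08, adjusted p = 0.158), under the fold threshold, on a scale that compresses values this low.

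**Figure D2:**
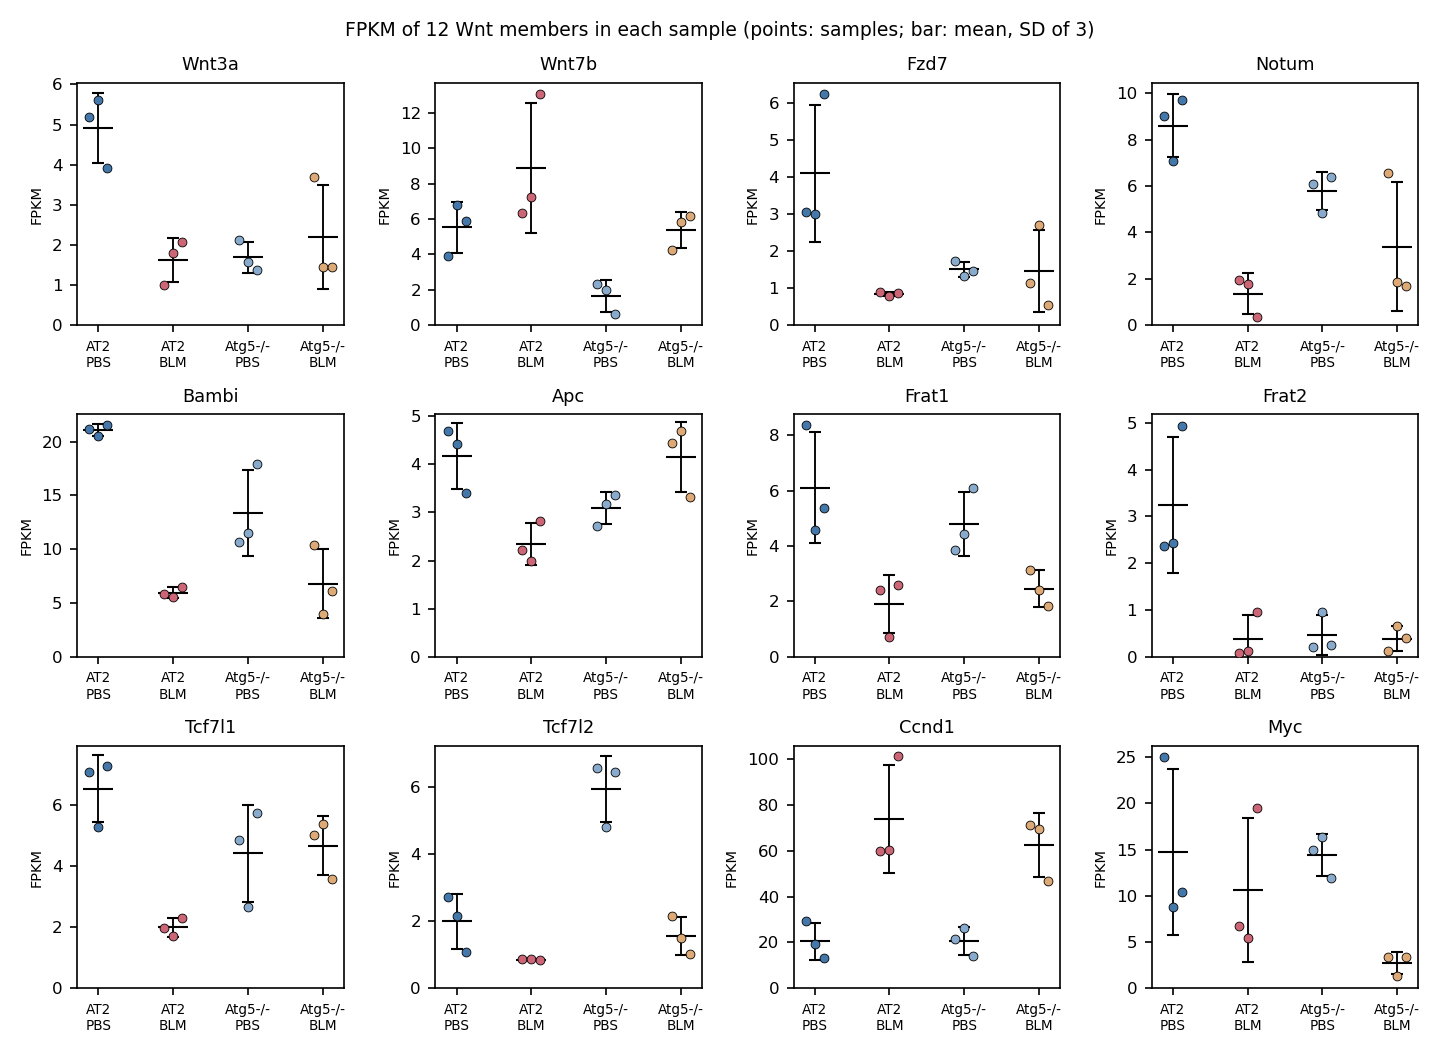
Each panel shows FPKM (vertical axis, from 0) of 1 member in the 12 samples, by group, with points for samples and a bar for the mean with SD of 3. Wnt3a and Frat2 were highest in the AT2-PBS samples only, Tcf7l1 and Apc had their lowest mean in AT2-BLM, Tcf7l2 was highest in Atg5-/- AT2-PBS, and Ccnd1 was higher with BLM in both genotypes.

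Of 7 tested nuclear factors, 2 fell with BLM and none rose, that is 28.6% called beside 28.4% of all genes. The 7 include the kinase gene Map3k7, which is loosely placed here and was called in no comparison. Tcf7l1, a TCF factor known mainly as a repressor (mm9 chr6:72576372-72739248, minus strand), was at 7.06, 5.27 and 7.26 FPKM in AT2-PBS and at 1.96, 1.70 and 2.30 in AT2-BLM. It was at 4.85, 2.65 and 5.73 in Atg5-/- AT2-PBS and at 5.03, 5.38 and 3.58 in Atg5-/- AT2-BLM. The AT2-BLM samples were below all 9 others. Tcf7l1 fell with BLM in AT2 cells (-1.33, SE 0.24, adjusted p = 0.00453). It was higher in Atg5-/- AT2-BLM than in AT2-BLM before adjustment (0.91, SE 0.24, adjusted p = 0.582), and its change with BLM differed between the genotypes by 1.42 (SE 0.34, adjusted p = 0.0236).

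Tcf7l2, a TCF factor that activates or represses targets depending on its partners (mm9 chr19:55816300-56008144, plus strand), was at 2.72, 2.16 and 1.10 FPKM in AT2-PBS and at 0.860, 0.867 and 0.843 in AT2-BLM. It was highest in Atg5-/- AT2-PBS, at 6.56, 4.79 and 6.44, and at 2.16, 1.49 and 1.02 in Atg5-/- AT2-BLM. Atg5-/- AT2-PBS was above AT2-PBS by 1.24 (SE 0.24, adjusted p = 0.00354) and above Atg5-/- AT2-BLM, from which the change with BLM was -1.45 (adjusted p = 0.00263). The fall in the floxed controls (-0.65, SE 0.24, adjusted p = 0.0779) lost its call without AT2-PBS replicate 1 (-0.47) or replicate 2 (-0.59). Lef1, a related factor, was at or below 0.945 FPKM in every sample and was not tested.

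The acetyltransferase coactivators Crebbp and Ep300 were each higher in Atg5-/- AT2-BLM than in AT2-BLM. Crebbp was at 2.78, 2.05 and 3.31 FPKM in AT2-BLM and at 5.63, 5.55 and 3.96 in Atg5-/- AT2-BLM (0.70, SE 0.24, adjusted p = 0.613). Ep300 was at 1.01, 0.582 and 1.51 against 1.58, 2.72 and 2.45 (0.69, SE 0.21, adjusted p = 0.607). In both cases the groups did not overlap and neither value passed adjustment. Ruvbl1, an ATPase of chromatin complexes, was at 11.8 to 14.9 FPKM in AT2-PBS and at 13.8 to 21.8 in AT2-BLM and was not called.

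The 7 target genes are Ccnd1, Ccnd2, Ccnd3, Myc, Ppard, Mmp7 and Wisp1, of which the last 2 were not tested. With BLM, 2 of the 5 tested rose and none fell, beside 20.6% and 7.77% of all genes. This count leaves out Wnt targets placed elsewhere. Nkd1 and Axin2 stand under other roles, and Rnf43, Znrf3 (both called lower) and Sp5 (called higher) lie outside the KEGG list. Ccnd1, cyclin D1, which drives entry into the cell cycle (mm9 chr7:152115836-152125774, minus strand), was at 29.3, 19.4 and 13.2 FPKM in AT2-PBS and at 60.1, 60.4 and 101 in AT2-BLM. It was at 21.4, 26.2 and 14 in Atg5-/- AT2-PBS and at 71.4, 69.7 and 46.6 in Atg5-/- AT2-BLM. All BLM samples of both genotypes were above all PBS samples. The rise was 1.82 (SE 0.31, adjusted p = 0.00365) in the floxed controls and 1.58 (SE 0.31, adjusted p = 0.00803) in Atg5-/- cells, and the difference between them, -0.24 with a 95% interval of -1.20 to 0.72, was not called.

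Ccnd3 was at 96.3, 119 and 89.3 FPKM in AT2-PBS, 157, 179 and 123 in AT2-BLM, 80.7, 77.6 and 83.5 in Atg5-/- AT2-PBS and 139, 141 and 182 in Atg5-/- AT2-BLM, so that again every BLM sample was above every PBS sample. It rose with BLM by 0.58 (SE 0.17, adjusted p = 0.0376) and by 0.91 (SE 0.17, adjusted p = 0.00584), the first call was lost under all 3 scalings (0.34 to 0.38), and the second under scaling to Cdh1 (0.46). Ccnd2 followed another pattern, at 8.85 to 12.3 FPKM in AT2-PBS, 10.1 to 12.3 in AT2-BLM, 17.6 to 19.6 in Atg5-/- AT2-PBS and 8.75 to 12.0 in Atg5-/- AT2-BLM. Only Atg5-/- AT2-PBS stood apart, above AT2-PBS by 0.74 (SE 0.16, adjusted p = 0.00993).

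Myc, a transcription factor of growth and proliferation (mm9 chr15:61816946-61821929, plus strand), was at 25, 8.81 and 10.4 FPKM in AT2-PBS and at 6.74, 5.46 and 19.5 in AT2-BLM, which overlapped. It was at 15, 16.4 and 11.9 in Atg5-/- AT2-PBS and at 3.34, 1.37 and 3.43 in Atg5-/- AT2-BLM. The last group was below all other samples, lower than Atg5-/- AT2-PBS (-2.10, SE 0.45, adjusted p = 0.0126) and lower than AT2-BLM before adjustment (-1.50, SE 0.45, adjusted p = 0.607). The second value was -0.98, still called, without AT2-BLM replicate 3. Mmp7 was listed at 0 in all samples but Atg5-/- AT2-PBS replicates 2 (0.428 FPKM) and 3 (0.606 FPKM).

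In the planar polarity branch 3 of 9 tested genes were called with BLM, or 33.3% beside 28.4% of all genes. The called genes encode small GTPases, of which Rhoa and Rac2 rose and Rac3 fell. Rhoa was at 99.7, 87.8 and 105 FPKM in AT2-PBS and at 142, 137 and 177 in AT2-BLM (0.63, SE 0.14, adjusted p = 0.0112), a rise whose call was lost under all 3 scalings. Rac3 was at 17.1, 26.7 and 33.1 against 10.8, 12.8 and 17.4 and fell (-0.84, SE 0.23, adjusted p = 0.0293), with an overlap of 1 sample in each group. Rac1 was not called and was at 87.7 FPKM in AT2-PBS replicate 3 and at 9.77 to 33.2 in the other 11 samples.

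Rac2, the Rac protein of blood cells (mm9 chr15:78389599-78403213, minus strand), was at 1.10, 0.839 and 0.354 FPKM in AT2-PBS, 1.92, 3.76 and 2.21 in AT2-BLM, 21.9, 14.2 and 19.3 in Atg5-/- AT2-PBS and 1.75, 5.36 and 6.27 in Atg5-/- AT2-BLM. Atg5-/- AT2-PBS was above AT2-PBS by 3.47 (SE 0.35, adjusted p = 5.72e-05) and fell with BLM (-1.93, adjusted p = 0.00444), while the floxed controls rose (1.03, SE 0.35, adjusted p = 0.059). The difference between the genotypes was -2.96 (SE 0.49, adjusted p = 0.00426). Of 6 tested leukocyte markers, 5 were called higher with BLM in AT2 cells and 5 lower with BLM in Atg5-/- cells, as Rac2 was. The summed leukocyte markers did not follow Rac2 unless Cd14 was left out. Their 8 genes summed to 39.9 to 82.2 FPKM in AT2-PBS, 114 to 560 in AT2-BLM, 317 to 410 in Atg5-/- AT2-PBS and 245 to 448 in Atg5-/- AT2-BLM, and without Cd14, which made up most of the sum in each sample, to 5.65 to 14.2, 19.9 to 48.7, 144 to 166 and 20.4 to 44.6. All 6 tested leukocyte markers were called higher in Atg5-/- AT2-PBS than in AT2-PBS, although CD45+ cells were gated out. The part of these cells in the level of Rac2, and likewise in those of Tcf7l2 and Ccnd2, was not tested.

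**Figure D3:**
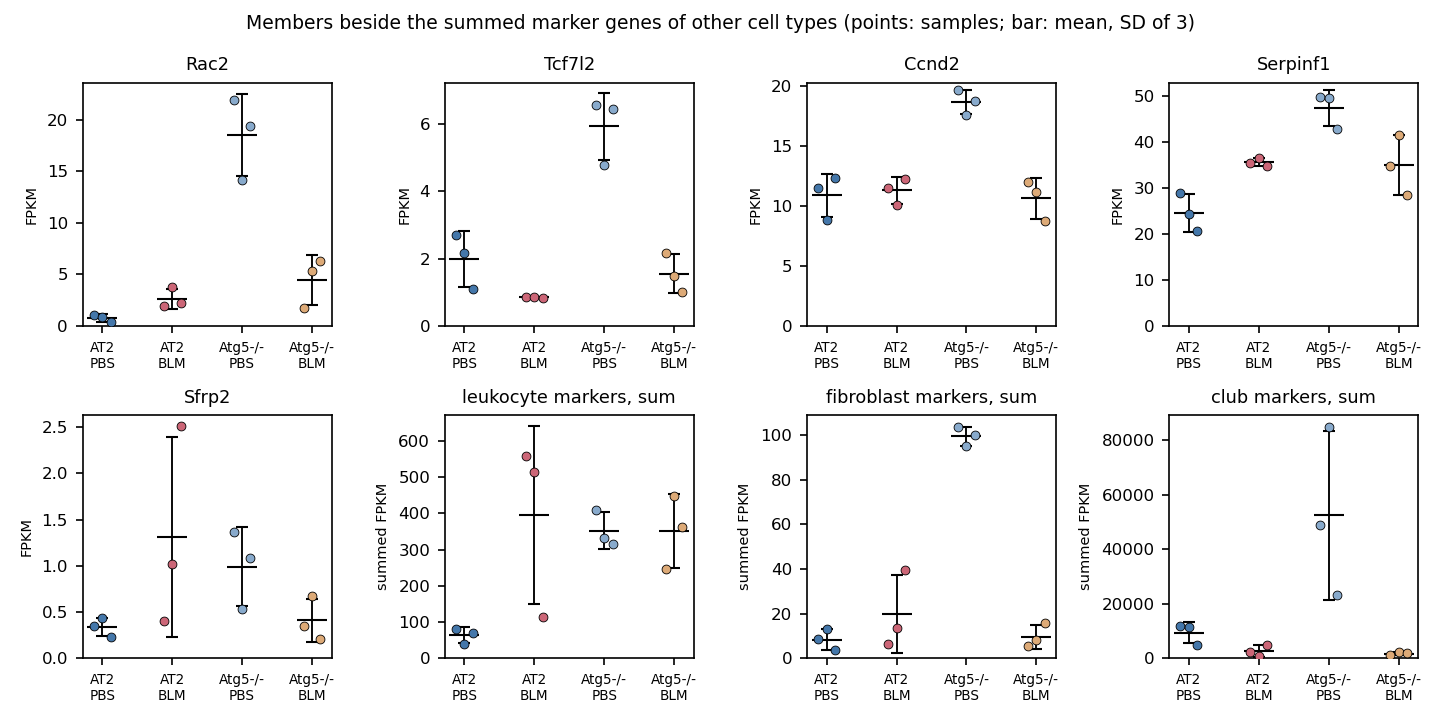
FPKM of 5 members and summed FPKM of the leukocyte, fibroblast and club cell marker lists (vertical axes, from 0) in each of the 12 samples, with the mean and SD of 3. Rac2, Tcf7l2, Ccnd2 and Serpinf1 were highest in the Atg5-/- AT2-PBS samples, in which the fibroblast sum (95 to 104) and the club cell sum were also highest.

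In the calcium branch 2 of 11 tested genes were called with BLM, or 18.2% beside 28.4% of all genes. Ppp3r1, the regulatory subunit of calcineurin, was higher, at 13.0 to 17.7 FPKM against 18.9 to 28.5 (0.49, adjusted p = 0.0998), and its value was 0.32 without AT2-BLM replicate 3 and 0.26 to 0.30 under the 3 scalings, and did not pass in any of these. Camk2g, a CaMKII subunit, was lower, at 4.71 to 6.37 against 3.14 to 4.51 (-0.54, adjusted p = 0.123). Plcb3, a phospholipase C, was at 11.1 to 11.9 FPKM in AT2-PBS and at 5.51 to 10.3 in Atg5-/- AT2-PBS (-0.53, adjusted p = 0.213), and without Atg5-/- AT2-PBS replicate 3 the value was -0.32 and did not pass. Camk2b was at 0, 0.0656 and 0.221 FPKM in AT2-BLM and at 3.24, 0.926 and 0.354 in Atg5-/- AT2-BLM (1.03, adjusted p = 0.627), and without replicate 1 of the second group the value was 0.57 and did not pass. Ppp3ca, the catalytic subunit of calcineurin, was at 15.6 to 19.7 FPKM in AT2-PBS and at 13.1 to 23.7 in AT2-BLM and was not called.

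**Figure D4:**
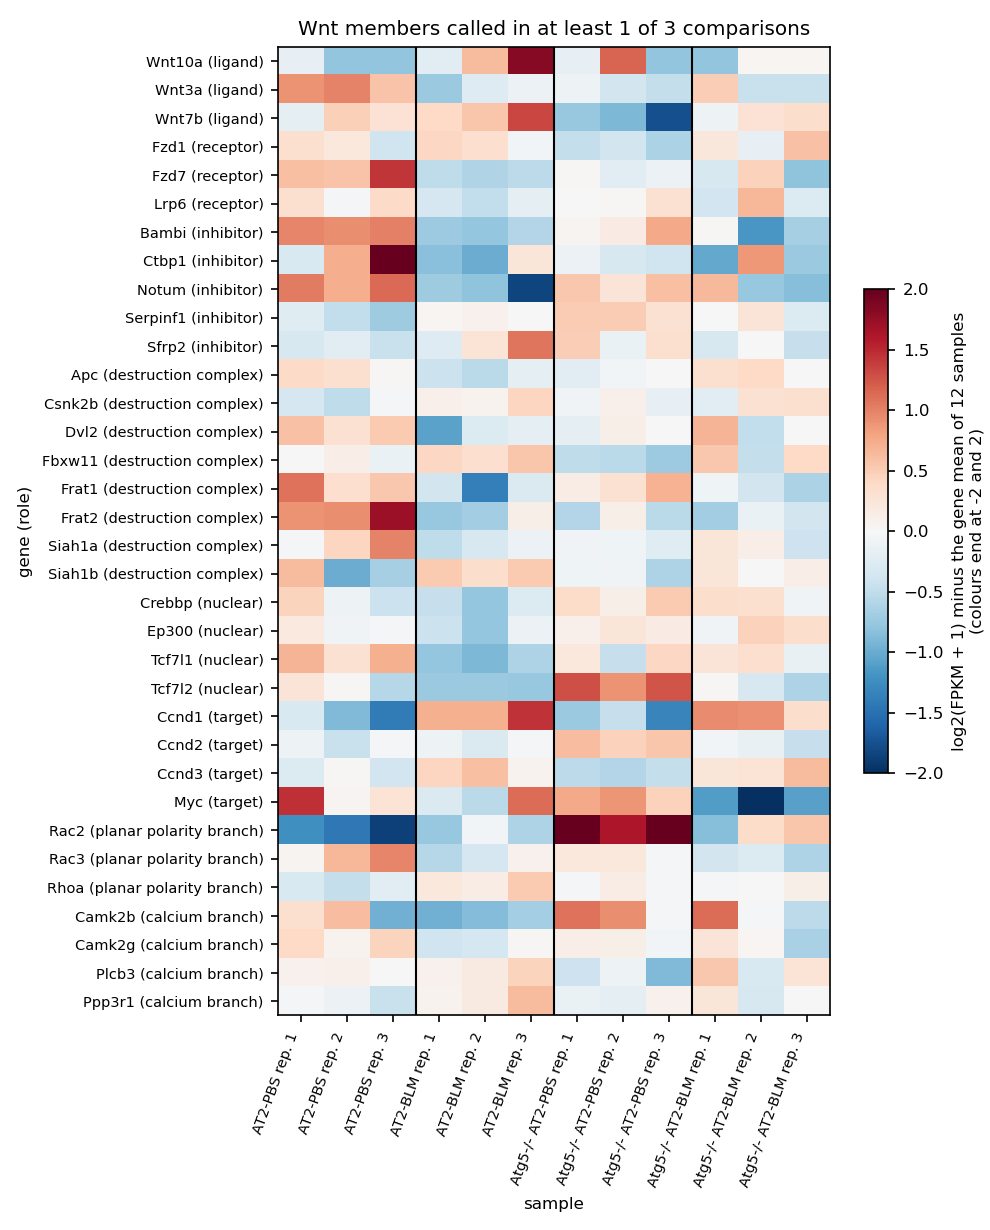
Rows are the 34 members called in at least 1 of the first 3 comparisons, with their role, and columns the 12 samples. Color gives log2(FPKM + 1) minus the mean of the gene over the samples. Replicates differ visibly within groups, as for Ctbp1 in AT2-PBS replicate 3 and Notum in Atg5-/- AT2-BLM replicate 1.

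Among BLM-treated mice few members differed by genotype. Against AT2-BLM, 5 were higher and 1 lower in Atg5-/- AT2-BLM, beside a background of 5.16% of all genes (2.04% higher and 3.12% lower), and 7.41% of members were called. These were Apc, Tcf7l1, Crebbp, Ep300 and Camk2b, which were higher, and Myc, which was lower. No member passed adjustment (limma, Benjamini-Hochberg), 7 had an unadjusted p under 0.05, and of all genes 1 passed (0.00937%). Apc and Tcf7l1 were also among the members lower in AT2-BLM than in AT2-PBS. Quantile normalization left 4 higher and 2 lower. The ranges were apart for 13 of the 81 members and for 13.4% of all genes. The AT2-BLM samples enter both comparisons, so that their own level moves both values.

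In PBS-treated mice the genotypes differed in 13 members, 4 higher and 9 lower in Atg5-/- AT2-PBS, that is 16% of members beside a background of 19.3% of all genes, of which 14.1% were higher and 5.16% lower. The median of all genes shifted by -0.18 under quantile normalization and by 0.32 under scaling to Cdh1, with 4 higher and 20 lower members in the first and 10 and 3 in the second, so the predominant direction of this comparison depends on the scaling. After adjustment 7 members passed, beside 11.2% of all genes. Wnt3a, Wnt7b and Frat2 were lower, and Rac2, Tcf7l2, Serpinf1 and Ccnd2 were higher. All 7 stayed past the study's threshold in the 22 settings that kept that threshold. Wnt3a had an adjusted p under 0.05 in 19 of the 22 (highest 0.0638) and Wnt7b in 17 (highest 0.099), and Serpinf1 and Ccnd2 did not reach a 2-fold change. The ranges of the groups were apart for 21 of 81 members and for 28.9% of all genes.

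With BLM in Atg5-/- cells, 8 members were higher and 7 lower, beside a background of 18.4% of all genes (7.66% higher and 10.7% lower), and 7 passed adjustment, as did 8.67% of all genes. Scaling to Cdh1, which shifted the median of all genes by -0.38, gave 2 higher and 11 lower. The ranges were apart for 19 of 81 members and for 24.9% of all genes. The change with BLM differed between the genotypes for 17 members, 10 with a higher value in Atg5-/- cells and 7 with a lower one, beside 20.2% of all genes (5.02% and 15.2%). The members' median difference was 0.20 and that of all genes -0.09. Quantile normalization shifted that median of all genes by 0.23 and gave 18 and 5, and scaling to Cdh1 shifted it by -0.18 and gave 5 and 8. After adjustment 6 members passed, beside 7.89% of all genes: Frat2, Tcf7l1, Wnt3a and Apc with a higher value and Serpinf1 and Rac2 with a lower one. The first 4 fell with BLM in the floxed controls and were not called with BLM in Atg5-/- cells. Wnt3a and Frat2 were at their low level in Atg5-/- AT2-PBS already. Tcf7l1 and Apc were higher in Atg5-/- AT2-BLM than in AT2-BLM, before adjustment only. With PBS the main fit called neither of them between the genotypes. Under quantile normalization both were called lower in Atg5-/- AT2-PBS (-0.68 and -0.54, not adjusted), and Tcf7l1 also under median-ratio scaling (-0.54). Their difference between the genotypes thus also draws on the PBS groups.

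**Figure D5:**
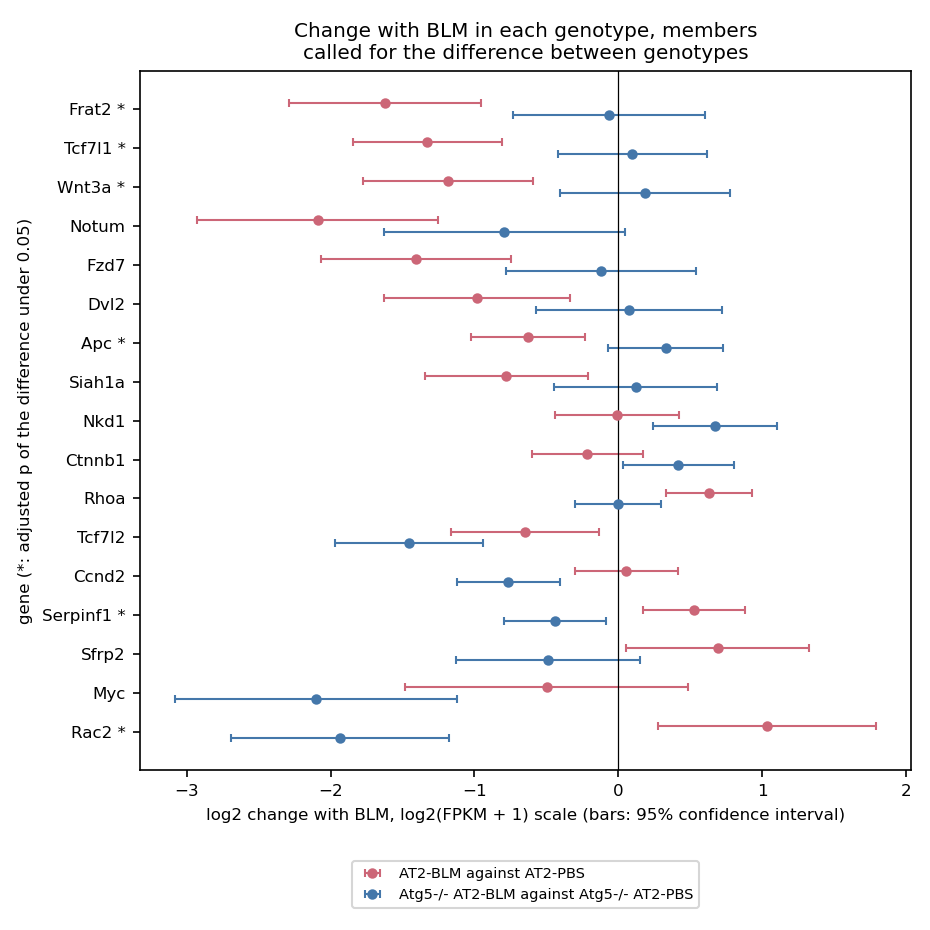
Log2 change with BLM (horizontal axis, with its 95% confidence interval) in AT2 cells and in Atg5-/- AT2 cells for the 17 members called for the difference between genotypes, with a star for an adjusted p under 0.05. Frat2, Tcf7l1, Wnt3a and Apc lie left of 0 in the floxed controls and near or right of 0 in Atg5-/- cells, and Rac2 lies on opposite sides.

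Of the 62 members below the limit for testing, 10 were listed at 0 in all samples and 10 reached 1 FPKM in at least 1 sample. In a fit without the limit, Fzd4, a Frizzled receptor also used by endothelial cells, was at 0.278 to 0.477 FPKM in AT2-PBS and at 0.968 to 1.83 in Atg5-/- AT2-PBS (0.80, adjusted p = 0.00929). Plcb2, a phospholipase C of blood cells, was at 0 to 0.0295 and at 0.398 to 0.664 (0.60, adjusted p = 0.00289). The secreted antagonist Sfrp4 reached 5.28 FPKM in Atg5-/- AT2-PBS replicate 1 and 0.704 at most in AT2-PBS (1.32, adjusted p = 0.11). Each was named after this fit had called it higher in Atg5-/- AT2-PBS than in AT2-PBS. The fit also called Lef1 higher there (0.53, adjusted p = 0.222). It called Wnt7a higher in AT2-BLM than in AT2-PBS (1.55, adjusted p = 0.108) and lower in Atg5-/- AT2-BLM than in AT2-BLM (-1.13, adjusted p = 0.809). Leukocyte and fibroblast marker genes were called higher in Atg5-/- AT2-PBS too, and no tested endothelial marker was. The part of those cells was not tested.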

How the data were processed

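The study sequenced RNA of sorted AT2 cells from 12 samples in 4 groups of 3. The mirVana kit was used for RNA, libraries were made with TruSeq from RNA with an integrity number above 7, and sequencing was done on an Illumina HiSeq instrument. The authors deposited 1 table of FPKM values per gene and sample, made with Cufflinks 2.2.1 on the mouse build mm9. The submitters' processing notes also name Trimmomatic 0.36, HISAT2 2.2.1.0 and HTSeq 0.9.1, while the methods name STAR as the aligner. DESeq normalization is mentioned, and whether it was applied to the deposited FPKM is not given in the sources used here. FPKM already divides by library total, so a few abundant genes can shift all others, and an exact 0 may be a failed estimate. Fragments per sample are not known, so no counting interval is given.

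Values were tested as log2(FPKM + 1) with limma 3.58.1 in R 4.3.3, in 1 fit over all 12 samples with a mean-variance trend, on the 10675 genes at 1 FPKM or more in at least 3 samples. The study's criterion for a call, a fold of 1.4 or more with p under 0.05 before adjustment, was kept, and Benjamini-Hochberg adjusted p-values over all 10675 genes are given beside it (limma in every case). All fold changes are on the log2(FPKM + 1) scale, which understates the change of low genes. An exact permutation test of 3 against 3 cannot go below 0.1. Comparisons that share samples are not independent. The members, roles and marker lists were chosen with earlier results of these data known. Genes named with values are the members called in at least 1 of the first 3 comparisons, the 2 members of each role with the highest mean FPKM, and a list fixed by name (Axin2, Lef1, Tcf7l2, Ctnnb1, Gsk3b, Lrp5, Lrp6, Porcn, Wnt3a, Wnt4, Wnt5a, Wnt7b, Wnt11, Fzd1, Fzd2, Sfrp1, Dkk3, Wif1, Ccnd1, Ccnd2, Myc, Mmp7; Dkk3 is no member). Wnt7a, Prkaca, Axin1, Wisp1, Dvl1, Dvl3, Map3k7, Fzd4, Plcb2 and Sfrp4 were named after their values were seen. On simulated data for AT2-BLM against AT2-PBS over 10675 genes the fit recovered 93 of 100 genes changed 2-fold and 99 of 100 changed 4-fold, and with no change simulated for Atg5-/- AT2-PBS against AT2-PBS it called 3.2%. Alternatives were 3 scalings, a pseudocount of 0.1, no filter, no trend, stricter thresholds, a fit on the compared groups, a replicate block and leaving out each sample, and, chosen after the data were seen, leaving out AT2-PBS replicate 3 with AT2-BLM replicate 3, and Y-linked expression as a covariate. Promoters and gene starts came from RefSeq (GRCm38.p6), and gene coordinates from the GENCODE annotation on mm9.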

Additional observations from a re-analysis of the deposited data

Results flagged for a closer look

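The change with BLM differed between Atg5-/- cells and the floxed controls for 6 of the 81 tested members. The criterion was an adjusted p under 0.05 for the interaction term of the limma fit. Of all genes 7.89% passed it, so the members' count is no excess over the background. The term is the log2 change in Atg5-/- cells minus that in AT2 cells. It was -2.96 for Rac2, whose adjusted p ran from 0.00387 to 0.0274 over the alternatives, and -0.97 for Serpinf1 (0.0119 to 0.0974). It was 1.42 for Tcf7l1 (0.0151 to 0.0933), 0.96 for Apc (0.0166 to 0.219), 1.56 for Frat2 (0.0227 to 0.18) and 1.37 for Wnt3a (0.0264 to 0.127). All 6 kept their direction and the study's threshold in the 21 alternatives that had an interaction value and kept that threshold. Rac2 and Serpinf1 moved with the markers of other cell types in Atg5-/- AT2-PBS given above. For Frat2 and Wnt3a the Atg5-/- AT2-PBS samples were as low as the AT2-BLM samples, so that the term rests on the level before BLM.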

How the results depend on the processing

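Depth limits are unknown without counts, and members near 1 FPKM are the least certain. No called value of a named member reversed in any alternative. Counts of called members (25 with BLM in AT2 cells, 6 between genotypes with BLM, 13 between genotypes with PBS, 15 with BLM in Atg5-/- cells, 17 for the interaction) stayed within 1.5 times except as follows. Requiring an adjusted p under 0.05 left 14, 0, 7, 7 and 6, and requiring a 2-fold change left 11, 2, 5, 5 and 9, both by their own construction. Quantile normalization gave 24 between genotypes with PBS, and the Y-linked covariate gave 11 between genotypes with BLM; the cause was not tested. Leaving out 1 sample at a time gave 18 to 25, 5 to 9, 10 to 16, 11 to 20 and 13 to 18. Calls with BLM in AT2 cells that were lost without 1 sample were Ccnd3 and Rac2 without AT2-BLM replicate 2 (0.46 and 0.82), Serpinf1 without AT2-PBS replicate 3 (0.41), Ppp3r1 also without AT2-PBS replicate 3 (0.37), and Camk2g, Csnk2b, Ctbp1, Lrp6, Sfrp2, Siah1b and Wnt10a without 3 or more different samples, beside Siah1a and Tcf7l2 given above. Between genotypes with BLM these were Crebbp without AT2-BLM replicate 2 (0.57) and Camk2b without 8 of the samples, and with PBS Fbxw11 in either of 2 fits (-0.53 without AT2-PBS replicate 2, -0.52 without Atg5-/- AT2-PBS replicate 3), and Bambi (-0.67 to -0.52), Fzd1 (-0.60 to -0.40), Plcb3 and Siah1a (-0.63 to -0.33) without 5 or more different samples. With BLM in Atg5-/- cells they were Fzd1 without Atg5-/- AT2-BLM replicate 3 (0.53), Gpc4 without Atg5-/- AT2-PBS replicate 2 (0.36) or Atg5-/- AT2-BLM replicate 1 (0.46), Nkd1 without Atg5-/- AT2-PBS replicate 2 (0.47), and Frat1, Plcb3 and Rac3. For the interaction they were Ctnnb1, Dvl2, Myc, Nkd1, Notum, Siah1a and Tcf7l2, each without 4 or more different samples. Scaling to Cdh1 also ended the calls of Fzd1 (-0.19), Fzd7 (-0.72), Bambi (-0.28), Siah1a (-0.37) and Plcb3 (-0.17) between genotypes with PBS. With BLM in Atg5-/- cells it ended those of Fzd1 (0.30), Gpc4 (0.13) and Plcb3 (0.21). For the interaction it ended those of Fzd7 (1.16), Nkd1 (0.46), Notum (1.00), Ctnnb1 (0.41) and Siah1a (0.76). The replicate numbers do not pair the samples, since the correlations of same-numbered samples ran from -0.239 to 0.227 and every comparison had one under 0.1. With the replicate number as a block the counts were 23, 7, 10, 16 and 17. A fit on the compared groups alone has no interaction value.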

Other observations

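Of 23 Wnt genes of the table that lie outside the KEGG list and are not members, 13 were tested. With BLM in AT2 cells 2 were called higher and 4 lower, where 20.6% and 7.77% of all genes were. Rnf43 and Znrf3, membrane ubiquitin ligases that remove Frizzled receptors and are themselves Wnt targets, were both lower. Znrf3 was at 5.21, 4.47 and 3.58 FPKM in AT2-PBS and at 1.65, 1.32 and 1.54 in AT2-BLM (log2 change -1.10, limma adjusted p = 0.00927), and Rnf43 at 3.96, 3.62 and 3.37 against 1.71, 2.18 and 1.95 (-0.66, adjusted p = 0.096). In neither gene did the groups overlap. Sp5, a transcription factor and Wnt target, was higher, at 13.7 to 18.7 FPKM in AT2-PBS against 22.9 to 39.4 in AT2-BLM (0.70, adjusted p = 0.04), and rose in Atg5-/- cells as well, from 9.09 to 11.7 FPKM up to 28.3 to 34.5 (1.60, adjusted p = 0.000733). Pygo2, a nuclear cofactor of beta-catenin, was also called higher (0.51, adjusted p = 0.0537). Sox4 (-1.83, adjusted p = 0.0478, with AT2-PBS replicate 3 at 51.9 FPKM and the other 2 AT2-PBS samples at 7.17 and 12.7) and Pygo1 (-1.04, adjusted p = 0.105) were called lower.

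Between Atg5-/- AT2-BLM and AT2-BLM, 2 of the 13 were called higher and none lower (2.04% and 3.12% of all genes), Rnf43 (0.57, adjusted p = 0.621) and Znrf3 (0.59, adjusted p = 0.62). Between the genotypes with PBS, 1 was higher, Cd44 (0.70, adjusted p = 0.00482), and 5 were lower (14.1% and 5.16% of all genes). The interaction was called for 20.2% of all genes and, in this list, for Rnf43 (1.31, adjusted p = 0.0477), Znrf3 (0.86, adjusted p = 0.15), Sp5 (0.90, adjusted p = 0.0932) and Cd44 (-0.65, adjusted p = 0.0722). For Rnf43 and Znrf3 the difference between the genotypes with BLM (0.57 and 0.59) was smaller than the term. The rest of each term lies in the PBS groups. Wls, which carries Wnt proteins to the cell surface, was at 72.8 to 139 FPKM in all samples and was called in no comparison.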
